A study of Rattus norvegicus with 44 samples.

Results

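Gene expression in the cortex bordering a 3-day-old infarct, the periinfarct area, was compared with that in the cortex of the opposite hemisphere, the contralateral area, of the same rats. The comparison takes the 4 arrays labelled periinfarct and the 4 labelled contralateral at 3 d after infarct, 8 of the 44 arrays analysed, and joins them in pairs through the rat number in the labels, which runs from 9 to 12. All animals were adult Sprague-Dawley rats without a transgene. Infarct rats had a branch of the right middle cerebral artery tied permanently through a small craniotomy (pMCAo), under ketamine, diazepam and atropine, with meloxicam as the analgesic. Each array carried RNA pooled from the same area of 3 rats, so a rat number stands for a pool, and pools 9 to 12 are the 4 replicates of each area. Beside it, 2 further contrasts were used, each from 4 other pools: periinfarct against contralateral cortex of infarct rats at 24 h (pools 1 to 4), and ipsilateral against contralateral cortex of sham-operated rats at 3 d (pools 13 to 16), which had the same surgery without infarct. The contralateral area is not untouched tissue, because the methods of the study state that both common carotid arteries were closed for a time during surgery, which lowers flow on that side too. Differences are given as periinfarct minus contralateral on the log2 scale of the quantile-normalized array signal, with the standard error (SE) from the fit, so that a difference of 1 is a 2-fold higher signal.

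The tissue around an infarct stays perfused but receives the debris, cytokines and ions released by dying cells. Resident microglia change from a surveying to a phagocytic state there and monocytes enter from the blood, while astrocytes become reactive, enlarge their intermediate filaments and begin to form the glial scar. Neurons at the border lose synaptic proteins, and the vessels and extracellular matrix are remodelled.

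The labelled cortex was checked against its markers first. The summed signal of 2 genes of cortical excitatory neurons, Slc17a7 and Neurod6, was 892, 914, 693 and 854 in the contralateral arrays of pools 9 to 12, against 761 to 1010 in the 4 arrays of healthy cortex. In the periinfarct arrays the sum was 519, 398, 694 and 584. Of the marker lists for other tissue, meninges had 2 of 10 genes called higher, Lum and Dcn (1.70), which are also genes of the extracellular matrix, and 3 without pool 11. Its other 8 genes had differences from -0.74 (Ptgds) to 0.92 (Crabp2). None of 9 striatal, 8 hippocampal, 7 choroid plexus and 5 erythrocyte genes was called, and of 9 skeletal muscle genes 1 was called lower (Tnnc2, a troponin of fast muscle). Single pools were uneven all the same. The median difference of the choroid plexus genes was 0.19, 0.02, -0.01 and 2.23 in pools 9 to 12. The summed signal of the meninges genes was 29500, 42300, 54300 and 13300 in periinfarct and 39000, 36800, 54100 and 50700 in contralateral cortex.

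The array labelled periinfarct of pool 11 stood apart from those of the other pools. At least 2-fold higher signals in the periinfarct array than in its contralateral partner were found for 3590 probes in pool 9, 4106 in pool 10 and 3606 in pool 12, but for 662 in pool 11, and at least 2-fold lower signals for 3437, 3625, 2494 and 775 probes in pools 9, 10, 12 and 11. The sham pools had 1036 to 2267 higher and 695 to 1207 lower probes. The array labelled periinfarct of pool 11 had correlations of 0.983 to 0.988 with the 4 contralateral arrays and of 0.939 to 0.967 with the other 3 periinfarct arrays. The core of the same pool differed from the other cores too. The summed signal of 35 synapse and excitatory neuron genes was 164000 in it, against 73700, 89300 and 91200 in the cores of pools 9, 10 and 12 and 235000 to 250000 in contralateral cortex, and that of 9 monocyte genes was 20400, against 42500, 40800 and 39000 and 1380 to 3210. Spp1 was at 16.24 in it, against 16.64, 16.54 and 16.04. What made the array labelled periinfarct of pool 11 resemble contralateral cortex was not tested. The group follows the labels throughout, and for the comparison at 3 d the counts of calls and the genes shown array by array are also given from a fit without the arrays of pool 11.

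**Figure D1:**
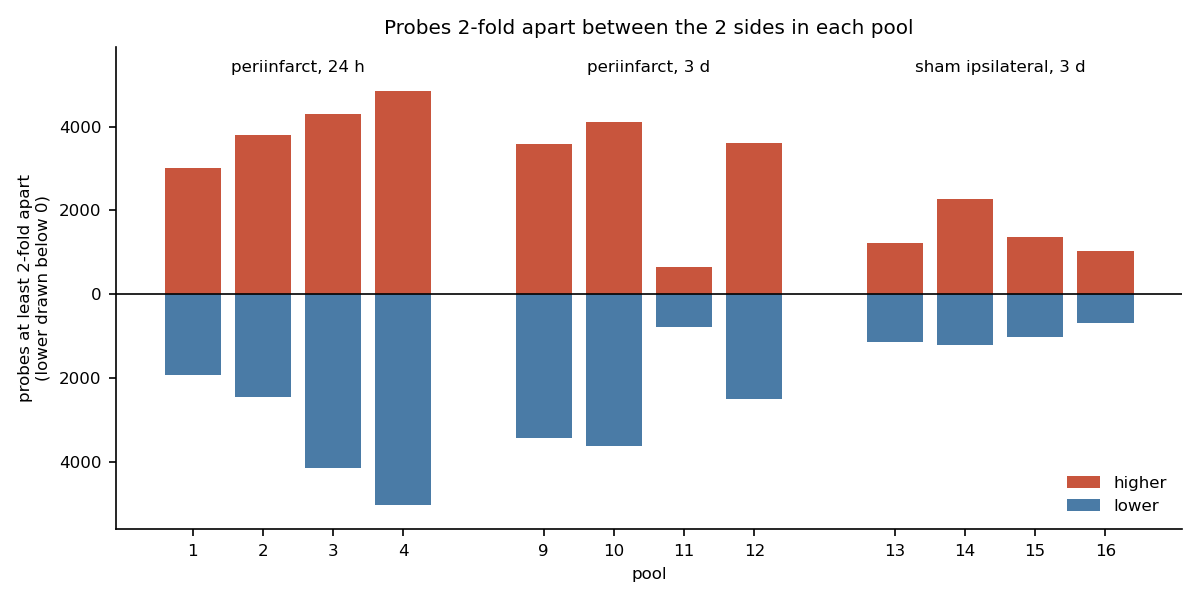
Number of probes (vertical axis) with at least 2-fold higher (upward bars) or lower (downward bars) signal in periinfarct than in contralateral cortex, or in ipsilateral than in contralateral cortex of sham-operated rats, in each of the 12 pools. Pool 11 has 662 probes higher and 775 lower, fewer than in the other pools of infarct rats, and its upward bar is below those of the sham pools.

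At 3 d far more genes passed the 2-fold limit upward than downward in the periinfarct area. Of 12121 genes, each read by 1 probe, 1003 were called higher (8.27%) and 47 lower (0.388%) in periinfarct than in contralateral cortex, a call being at least a 2-fold difference at a limma adjusted p below 0.05 over the 30538 probes tested. Counted by probe, 1658 were higher and 119 lower. The largest increases were those of Serpina3n (5.36), a protease inhibitor of reactive astrocytes, Spp1 (5.32), a secreted phagocyte product, and Ccl2 (5.25), a monocyte chemokine. The median difference over all genes was -0.08. Without pool 11 the same fit called 1420 genes higher (11.7%) and 220 lower (1.82%), and of the 3107 probes called then, 1757 were among the 1777 called with all pools.

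The spread between pools sets how far these counts can be read. Among the 1003 genes called higher, 991 were at least 2-fold higher in pool 9, 997 in pool 10 and 862 in pool 12, but 26 in pool 11, where the median difference of these genes was 0.08 against 2.15, 2.52 and 1.76. The SD of the difference over the 4 pools had a median of 1.14 for them, compared with 0.40 for all genes. The difference was positive in all 4 pools for 708 of them, and for 438 the 4 periinfarct arrays were all above the 4 contralateral ones, an arrangement that 8.16% of all genes showed. Of the 47 genes called lower, 28 were lower in all 4 pools and 18 did not overlap between the areas, against 7.25% of all genes. In the other direction, pool 11 had 146 genes at least 2-fold higher and 223 at least 2-fold lower, of which 26 and 6 were among the genes called.

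The calls draw on the spread estimated over all 44 arrays. A fit of the 8 compared arrays alone called 0 probes, with 5646 at an unadjusted limma p below 0.05 and a lowest adjusted p of 0.257, and the same fit without pool 11 called 1349. No pool had its 2 arrays on 1 slide, and with the slide as a further block limma called 0 probes too (3167 at an unadjusted p below 0.05, lowest adjusted p 0.0715, 8 residual degrees of freedom). A single slide held arrays of both areas, periinfarct of pool 12 and contralateral of pool 11. On that slide 1380 of the 1658 probes called higher were at least 2-fold higher, and 77 of the 119 called lower were at least 2-fold lower. Both arrays entered the fit that made these calls, so these shares are a description and no separate check of the slide. With another background correction (normexp) 581 probes were called, 558 of them higher, among them 20 of 39 cell cycle, 15 of 29 phagocyte and 8 of 32 interferon genes. Of 26 chemokine and cytokine receptor genes it left 4 called, with a median of 0.39 against 1.3. Of 31 chemokine and cytokine genes it left 8 called, with a median of 0.23 against 1.35. The median of each list described here kept its sign under that correction, under scaling to the 75th percentile and in the authors' normalized table, except for the erythrocyte list (-0.01 to 0.04). Sham-operated rats, fitted in the same way, had 0 probes called between their 2 sides (436 at an unadjusted limma p below 0.05).

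Genes of phagocyte activation and the lysosome rose together. Of 29 measured genes of this list, 20 were called higher and 0 lower, with a median difference of 1.71 against -0.08 for all genes, and 24 were called higher without pool 11. Over all genes, 8.27% were called higher and 0.388% lower, or 11.7% and 1.82% without pool 11. The list counts at 3 d that follow are to be read beside the same shares. Spp1 encodes osteopontin, a secreted phosphoprotein of activated macrophages. Its log2 signal was 15.44, 15.73, 8.08 and 14.71 in the periinfarct arrays of pools 9, 10, 11 and 12 and 6.24, 7.47, 7.97 and 11.01 in the contralateral arrays. Pool 11 stayed at its contralateral level, below the contralateral array of pool 12, so the areas overlapped. The difference was 5.32 ± 1.06 (39.9-fold, limma adjusted p = 0.00182), or 7.05 ± 0.89 without pool 11. Lgals3, the galectin of phagocytosing cells, had 14.49, 15.40, 9.61 and 14.10 in periinfarct and 8.57, 8.57, 9.47 and 10.34 in contralateral cortex. Again 3 pools rose and the array of pool 11 lay within the contralateral range, for a difference of 4.16 ± 0.64 (17.9-fold, limma adjusted p = 0.000374), or 5.50 (45.4-fold) without pool 11. The scavenger receptor gene Msr1, which was well above background on no contralateral array, was at least 6.18-fold higher (limma difference 4.16). Further called members were Gpnmb (3.82), the lysosomal glycoprotein gene Cd68 (3.55), Trem2 (1.71), a lipid-sensing receptor of microglia, and its adaptor Tyrobp (1.95). Not called were the cathepsin genes Ctsb (0.77), Ctsl (0.91) and Ctss (0.44). In Ctsb, the brightest gene of the list that was not called, the pools differed by 1.02, 1.09, 0.02 and 0.97. In pooled tissue RNA, more cells of a type and more RNA per cell cannot be told apart, here or in the lists that follow.

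Igf1, a growth factor that microglia and macrophages release after injury, differed in the same way. Its log2 signal was 12.88, 13.05, 9.86 and 11.86 in periinfarct and 9.45, 9.48, 9.80 and 9.92 in contralateral cortex of pools 9 to 12. The array of pool 11 fell between the contralateral ones and the other 3 lay above all of them. The difference was 2.25 ± 0.34 (4.76-fold, limma adjusted p = 0.000374) and 2.98 ± 0.22 without pool 11.

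Markers of surveying microglia were tested as a list of their own. Of 11 measured genes, 5 were called higher and 0 lower, with a median of 1.12, and without pool 11 there were 8. Aif1, a calcium-binding protein of microglia and macrophages, had 13.29, 13.35, 11.24 and 13.07 in periinfarct and 11.05, 10.72, 11.18 and 11.05 in contralateral cortex, with no overlap between the areas and a difference of 1.74 ± 0.25 (limma adjusted p = 0.000374), or 2.29 without pool 11. The colony-stimulating factor receptor gene Csf1r had a difference of 1.38 ± 0.29, the fractalkine receptor gene Cx3cr1 1.25 and the purinergic receptor gene P2ry12 1.12, all called. Tmem119, a membrane protein found in microglia and not in monocytes, was not called, with a difference of 0.23 (limma adjusted p = 0.735).

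Chemokines that attract monocytes were among the largest differences. Of 31 chemokine and cytokine genes, 15 were called higher and 0 lower, with a median of 1.35, and 17 were higher without pool 11. Ccl2, the main monocyte attractant, had log2 signals of 10.74, 11.60, 4.79 and 11.52 in periinfarct and 3.21, 3.72, 4.78 and 5.94 in contralateral cortex. The array of pool 11 equalled its partner and the other 3 were above every contralateral array. The difference was 5.25 ± 1.02 (38.2-fold, limma adjusted p = 0.00142), and 7.00 ± 0.90 without pool 11. Its neighbour in function Ccl7 had a difference of 4.69 ± 0.88. The neutrophil attractant Cxcl1, which was well above background on no contralateral array, was at least 10.9-fold higher in the mean over the pools. The pool differences of Cxcl1 were 5.36, 6.82, 0.36 and 4.36 (limma difference 4.22 ± 1.05). The interferon-induced Cxcl10 and Cxcl11, which attract T cells, had 2.77 and 3.22. Not called were Il6 (0.45), Tnf (0.99), Ccl20 (1.14) and Cxcl12 (-0.30).

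Among the receptors, 16 of 26 genes were called higher and 0 lower, with a median of 1.3, and 19 were higher without pool 11. Called genes were Ccr2 (1.66), the receptor of Ccl2 on monocytes, the Il33 receptor gene Il1rl1 (2.94) and Tnfrsf1b (2.37), a receptor of tumour necrosis factor. Cxcr4, the receptor of Cxcl12, had 7.61, 8.64, 5.69 and 6.97 in periinfarct and 5.28, 5.49, 5.58 and 5.35 in contralateral cortex. The areas did not overlap, though pool 11 was higher by 0.10 alone, and the difference was 1.80 ± 0.34 (3.48-fold, limma adjusted p = 0.00114), or 2.37 without pool 11.

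Complement proteins coat debris for uptake and attack membranes. Of 19 complement genes, 14 were called higher and 0 lower, with a median of 1.56, and 16 were higher without pool 11. C1qc, a chain of the recognition molecule C1q, had 11.01, 11.23, 8.58 and 11.48 in periinfarct and 8.33, 8.22, 8.61 and 8.42 in contralateral cortex. Pools 9, 10 and 12 rose by 2.68, 3.01 and 3.06 and pool 11 by -0.03. The difference was 2.18 ± 0.33 (4.53-fold, limma adjusted p = 0.000374), or 2.92 (7.55-fold) without pool 11. The chains C1qb (1.69) and C1qa (1.56), the receptor genes C5ar1 (2.51) and C3ar1 (1.80) and the C1 inhibitor gene Serping1 (2.05) were called as well. C3, the central component, had 0.99 and was not called.

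Genes induced by interferon form a further group. Of 32 measured, 21 were called higher and 0 lower, with a median of 1.52, and 27 without pool 11. Interferons act through the factor complex ISGF3 and related factors that bind the interferon-stimulated response element (ISRE), 2 copies of GAAA with 2 bases of any kind between them. These letters were searched on both strands from 250 bases before to 50 after the start site of each gene in the RefSeq promoter table (GRCr8). Of the 24 list genes with a promoter in the table, 17 held them (70.8%), against 1034 of all 27457 promoters (3.77%). They were held by 11 of the 15 called genes with a promoter (73.3%) and by 6 of the 9 not called. The 4 promoters below belong to the called genes with the largest differences that held the letters, and are shown for where the letters lie in each. They are those of Lgals3bp (chr10:104127799-104128098, minus strand), a secreted glycoprotein, of Gbp2 (chr2:234005477-234005776, plus strand) and Gbp4 (chr2:233978236-233978535, plus strand), interferon-induced GTPases, and of Ifitm3 (chr1:205541709-205542008, minus strand), a membrane protein that blocks virus entry. Each is written 5′ to 3′ along the gene, with the match in capitals. In Gbp2 and Gbp4 the match lies on the reverse strand and so reads as 2 copies of TTTC here.
Lgals3bp: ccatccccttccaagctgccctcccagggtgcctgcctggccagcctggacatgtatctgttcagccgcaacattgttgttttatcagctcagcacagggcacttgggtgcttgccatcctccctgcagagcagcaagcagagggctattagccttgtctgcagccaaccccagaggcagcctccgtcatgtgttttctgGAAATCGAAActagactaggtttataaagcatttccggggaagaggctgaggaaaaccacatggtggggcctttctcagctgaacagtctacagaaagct
Gbp2: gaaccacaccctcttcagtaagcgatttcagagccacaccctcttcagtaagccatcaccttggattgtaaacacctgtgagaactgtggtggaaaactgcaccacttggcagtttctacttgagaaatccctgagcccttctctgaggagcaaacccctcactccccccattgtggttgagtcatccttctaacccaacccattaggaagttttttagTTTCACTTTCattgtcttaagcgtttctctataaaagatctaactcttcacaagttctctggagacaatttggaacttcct
Ifitm3: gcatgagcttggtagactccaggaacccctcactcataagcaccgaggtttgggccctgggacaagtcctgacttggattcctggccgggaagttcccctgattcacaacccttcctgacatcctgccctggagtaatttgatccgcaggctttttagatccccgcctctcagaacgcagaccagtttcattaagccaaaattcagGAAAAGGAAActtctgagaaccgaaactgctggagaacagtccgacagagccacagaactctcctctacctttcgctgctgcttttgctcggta
Gbp4: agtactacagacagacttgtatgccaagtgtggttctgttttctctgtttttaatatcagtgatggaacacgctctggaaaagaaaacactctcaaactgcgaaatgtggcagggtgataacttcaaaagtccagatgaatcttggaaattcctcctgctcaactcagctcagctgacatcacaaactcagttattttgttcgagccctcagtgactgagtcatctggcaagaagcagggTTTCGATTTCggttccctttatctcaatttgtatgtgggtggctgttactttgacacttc
The first base of the match lay 50, 31, 44 and 10 bases before the start site in Lgals3bp, Gbp2, Ifitm3 and Gbp4. A match describes the letters in the window and is not a binding site by itself. The called genes Mx1, Oasl, Ifi47 and Irf9 had no match in it.

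The 4 genes had these values. Lgals3bp was at 11.19, 11.56, 9.07 and 11.31 in periinfarct and at 8.20, 8.13, 9.01 and 8.49 in contralateral cortex (difference 2.32, limma adjusted p = 0.000374). Gbp2 was at 10.59, 11.09, 8.97 and 10.98 against 7.96, 7.92, 8.86 and 8.06 (2.21, limma adjusted p = 0.000706). In both genes, and in Ifitm3 (2.09), the areas did not overlap, although pool 11 rose by 0.06, 0.11 and 0.17. Gbp4 was dimmer, at 4.94, 4.83, 3.05 and 4.91 against 1.31, 2.49, 3.17 and 2.71 (2.01, limma adjusted p = 0.0154), and the array of pool 11 lay below its partner. Mx1, a GTPase that blocks virus replication, had 6.28, 6.13, 4.46 and 6.88 in periinfarct and 1.18, 1.61, 4.58 and 2.05 in contralateral cortex. Both arrays of pool 11 were near 4.5, above the other contralateral arrays and below the other periinfarct ones. The difference was 3.58 ± 0.61 (12.0-fold, limma adjusted p = 0.000607), or 4.82 without pool 11, with 1 of the 4 contralateral arrays well above background. Without pool 11 the differences of Lgals3bp, Gbp2, Ifitm3 and Gbp4 were 3.08, 2.91, 2.73 and 2.73. The transcription factor genes of the pathway were called for Irf7 (1.74) and Irf9 (1.09) and not for Irf1 (0.94) or Stat2 (0.53).

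Antigen presentation had 16 of 20 genes called higher and 0 lower, with a median of 1.58, and 18 higher without pool 11. The class II gene RT1-Da, whose product shows extracellular peptides to CD4+ T cells, had 10.58, 11.45, 7.31 and 10.38 in periinfarct and 6.71, 6.4, 7.23 and 7.45 in contralateral cortex. The array of pool 11 lay inside the contralateral range and the others above it, with a difference of 2.98 ± 0.47 (7.90-fold, limma adjusted p = 0.000425), or 3.95 (15.4-fold) without pool 11. The invariant chain gene Cd74 (2.69), the costimulatory Cd86 (2.46), the class II transactivator gene Ciita (1.51) and the peptide transporter gene Tap1 (1.65) were called. B2m, the light chain of class I, was not, at 0.92 (limma adjusted p = 0.000806), since its difference was below 2-fold.

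Markers of blood leukocytes were counted by cell type, over the genes with a probe that passed the filters, which for B cells were 3 of 8. Of 9 monocyte genes 7 were called higher (median 1.66), of 10 neutrophil genes 3 (0.78), of 15 T and NK cell genes 4 (0.61) and of 3 B cell genes 2 (1.46), with 0 lower in each. Without pool 11 the counts were 8, 3, 5 and 2. Over all genes 8.27% were called higher with all pools and 11.7% without pool 11. S100a4, a calcium-binding protein of monocytes and fibroblasts, had 14.33, 14.70, 11.05 and 14.25 in periinfarct and 9.57, 9.08, 10.95 and 9.96 in contralateral cortex, a difference of 3.69 ± 0.52 (12.9-fold, limma adjusted p = 0.000374), or 4.89 (29.7-fold) without pool 11. The areas did not overlap, with the array of pool 11 higher than its partner by 0.10. The ficolin gene Fcnb had 4.35 ± 0.82. The neutrophil calls were Lcn2 (4.29), which reactive astrocytes express too, Mmp8 (at least 1.7-fold, with 0 contralateral arrays well above background) and Csf3r (1.87), whereas the granule genes Elane, Camp and Prtn3 had differences of -0.14, -0.53 and -0.55. Among T and NK genes the calls were Cd8a (at least 5.64-fold in the mean over the pools), Cd8b (2.74), Cd3g (1.58) and Cd4 (1.09), of which macrophages in rats can carry Cd4 too. In Cd8a the pools differed by 6.61, 5.93, -0.23 and 2.60. Cd8b had 8.23, 9.05, 4.94 and 6.86 in periinfarct and 4.32, 4.56, 4.78 and 4.48 in contralateral cortex, with no overlap, and its difference was 3.60 without pool 11. The signal genes Lck (0.14) and Zap70 (-0.12) were not called. The summed signal of the 9 monocyte markers was 26500, 34200, 3390 and 24200 in periinfarct and 1810, 1380, 3210 and 1890 in contralateral cortex of pools 9 to 12, and its part in the other results was not tested.

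Reactive astrocyte genes were higher too. Of 25 genes, 17 were called higher and 0 lower, with a median of 2.05, and 21 were higher without pool 11, with a median of 2.85. Some lists share members, such as Lcn2 with the neutrophil list and Serpina3n with the proteases and inhibitors, so the counts of lists are not independent. Serpina3n, a secreted protease inhibitor of reactive astrocytes, had 9.87, 10.91, 5.36 and 10.01 in periinfarct and 3.65, 3.20, 5.43 and 2.43 in contralateral cortex. The 3 other pools rose by 6.23, 7.71 and 7.58, and pool 11 differed by -0.07. The difference was 5.36 ± 0.89 (41.2-fold, limma adjusted p = 0.000487), or 7.17 (144-fold) without pool 11. Cd44, a receptor of hyaluronan, had 10.33, 11.08, 6.82 and 10.63 against 5.66, 5.51, 6.82 and 6.25, a difference of 3.66 ± 0.55 (12.6-fold, limma adjusted p = 0.000374), or 4.87 (29.3-fold) without pool 11. A second probe of Cd44 had 0.50 and was not called. The intermediate filament genes were called, Vim at 2.70, Nes at 2.64 and Gfap at 2.27. Of 16 genes of astrocytes in general, 0 were called in either direction by limma with all pools, and their median was -0.12. The water channel gene Aqp4 had 0.79 (1.73-fold, limma adjusted p = 0.00357), below the fold limit, and was the gene of this list called without pool 11. Glutamate transporter genes Slc1a2 and Slc1a3 had -0.16 and -0.04.

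**Figure D2:**
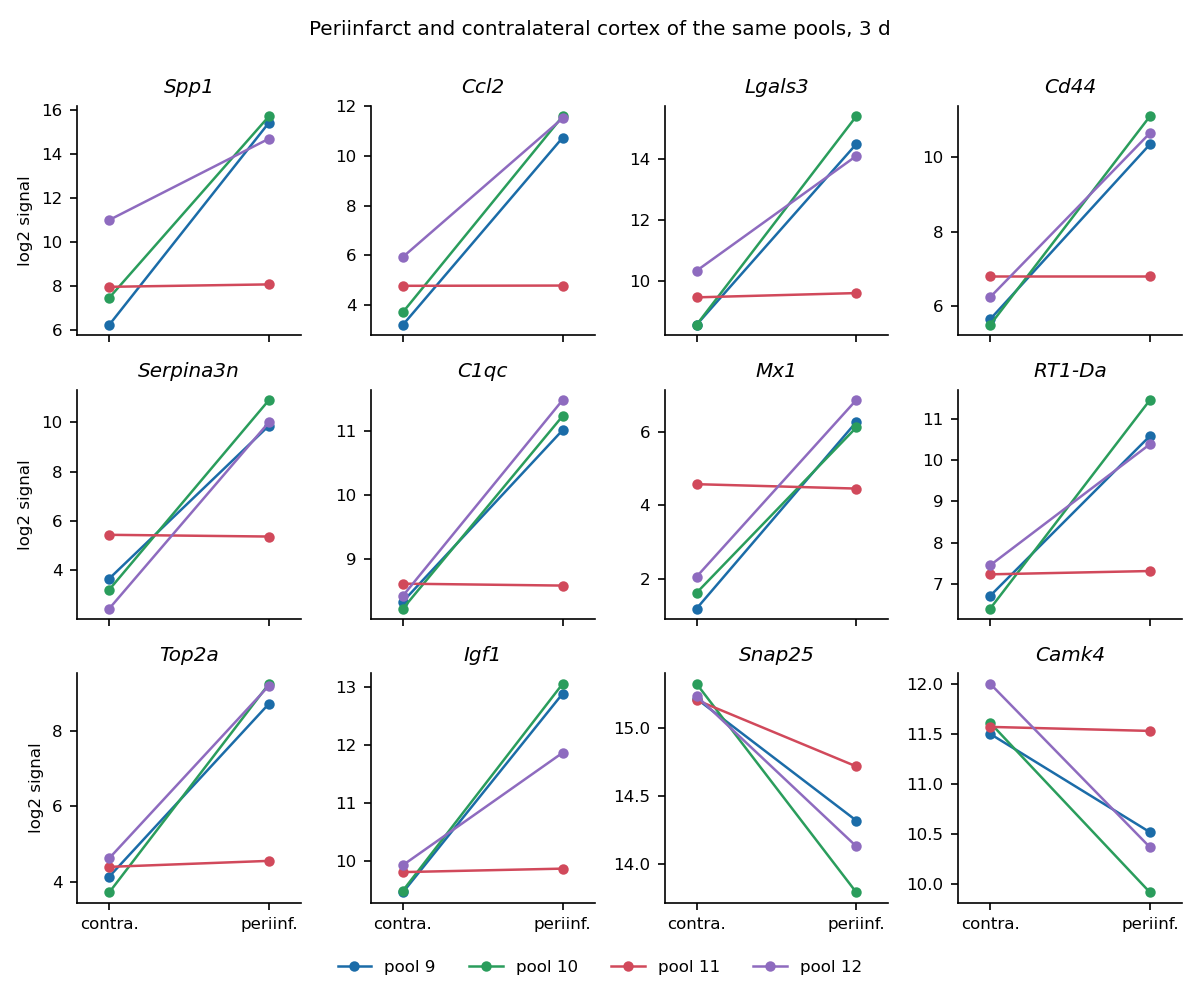
Log2 signal (vertical axis) in contralateral and periinfarct cortex at 3 d for 12 genes, with a line joining the 2 arrays of a pool and a colour for each of pools 9 to 12. In the 10 genes called higher the line of pool 11 is nearly flat, with changes of -0.12 to 0.16 (Mx1 and Top2a), while the other 3 lines rise, and in Snap25 all 4 lines fall.

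The matrix and the enzymes that remodel it were higher as well. Of 32 extracellular matrix genes, 17 were called higher and 0 lower (median 1.11), and of 23 proteases and inhibitors 13 higher and 0 lower (median 1.38). Without pool 11 these were 18 higher and 1 lower, and 15 higher. Tnc, the tenascin of glial scars, had 7.78, 7.88, 5.17 and 7.35 in periinfarct and 4.55, 4.35, 5.46 and 4.53 in contralateral cortex, with pool 11 at -0.30 and a difference of 2.32 ± 0.54 (limma adjusted p = 0.00562), or 3.19 without pool 11. Lum, a collagen-binding proteoglycan, had 7.00, 6.94, 4.89 and 5.92 against 4.31, 3.43, 4.44 and 3.53, without overlap and with all 4 pools higher (2.26 ± 0.44, limma adjusted p = 0.00144, and 2.86 without pool 11). Collagen genes Col3a1 (2.00), Col1a1 (1.69) and Col4a1 (1.60) were called, while Acan and Bcan, core proteins of the neuronal surround, had -0.93 and -0.30. Of the metalloproteinases, Mmp7 and Mmp12 were at least 7.78-fold and at least 7.62-fold higher against contralateral arrays of which none was well above background. Timp1, their inhibitor, had 3.39, and the urokinase gene Plau had 3.58.

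Cell cycle genes had a median of 2.12, with 32 of 39 called higher and 0 lower. Without pool 11, 35 were higher and the median was 2.81. Top2a, the topoisomerase of dividing cells, had 8.74, 9.27, 4.55 and 9.22 in periinfarct and 4.13, 3.71, 4.39 and 4.62 in contralateral cortex, a difference of 3.74 ± 0.57 (13.3-fold, limma adjusted p = 0.000374), or 4.93 (30.4-fold) without pool 11. Cdk1, the kinase that starts mitosis, had 11.34, 11.76, 6.82 and 11.17 against 6.49, 5.91, 6.57 and 6.65, with no overlap and a difference of 3.86 ± 0.62 (14.6-fold, limma adjusted p = 0.000432), or 5.07 (33.6-fold) without pool 11. The array of pool 11 was above its partner by 0.16 in Top2a and by 0.24 in Cdk1. The centromere gene Cenpa was at least 7.55-fold higher. Replication genes were smaller in their differences, with Mcm2 at 1.68 and Pcna at 0.95, the latter not called. Ccne1 and Ccne2, which drive entry into S phase, had -0.14 and -0.13 and were not called. The marker lists do not show which cells carried these transcripts.

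Few neuronal genes passed the call limit, though most differences were negative. Of 35 synapse and excitatory neuron genes, 0 were called higher and 3 lower (8.57%), with a median of -0.54 against -0.08 for all genes, and 8 were called lower without pool 11. Over all genes, 0.388% were called lower, and 1.82% without pool 11. Snap25, a fusion protein of synaptic vesicles, had 14.32, 13.79, 14.72 and 14.13 in periinfarct and 15.22, 15.33, 15.21 and 15.24 in contralateral cortex. All 4 pools were lower, with differences of -1.55 to -0.49, and the areas did not overlap, with a difference of -1.01 ± 0.21 (limma adjusted p = 0.00208), or -1.19 without pool 11. Camk4, a calcium-dependent kinase of neuronal nuclei, had 10.52, 9.92, 11.53 and 10.37 against 11.50, 11.61, 11.57 and 12.00, a difference of -1.08 ± 0.22 (limma adjusted p = 0.00231), or -1.43 without pool 11. Pool 11 differed by -0.04 there, and its array overlapped the contralateral range. The third gene was the vesicular glutamate transporter gene Slc17a6 (-1.04). The neurofilament genes Nefm (-0.89) and Nefl (-0.86), the kinase gene Camk2a (-0.75) and the NMDA receptor gene Grin2a (-0.80) were not called.

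Of 19 inhibitory neuron genes, Cort, the neuropeptide gene of a class of interneurons, was called lower (-1.15 ± 0.26, limma adjusted p = 0.00491) and 0 were called higher, with a median of -0.50, and 5 were lower without pool 11, where Cort had -1.57. Its arrays were at 10.64, 9.09, 11.38 and 10.23 in periinfarct and 11.69, 11.33, 11.24 and 11.66 in contralateral cortex, pool 11 being higher by 0.14. Calb1 (-0.99) and Pvalb (-0.92), calcium-binding proteins of interneurons, were not called, and Gad2 (-0.02), an enzyme of GABA synthesis, was near 0. Of 18 voltage-gated potassium channel genes, limma called 0 in either direction with all pools and 3 lower without pool 11. All of them had negative differences, from -0.90 (Kcnc1) to -0.35 (Kcnab1), with a median of -0.56.

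The largest decreases by the naming rule were small beside the increases. Fn3krp, an enzyme of protein deglycation, had 6.17, 5.17, 7.17 and 6.89 in periinfarct and 8.27, 7.68, 7.97 and 7.68 in contralateral cortex, all 4 pools lower and no overlap (-1.55 ± 0.47, limma adjusted p = 0.0267, and -1.80 without pool 11). Pcdh20, an adhesion protein of the protocadherin family, had 5.55, 4.98, 6.89 and 5.90 against 7.30, 7.25, 7.26 and 7.22, likewise without overlap (-1.43 ± 0.30, limma adjusted p = 0.00245, and -1.78 without pool 11). The potassium leak channel gene Kcnk15 (-1.53), the small GTPase gene Rnd1 (-1.36), the synapse organiser gene Cbln2 (-1.24), Lamp5 (-1.23), a vesicle protein of a class of interneurons, and Rims1 (-1.14), a scaffold of the active zone, were also among these 12. The smallest of the 12 was R3hdm1, at -1.09, against a median of -0.08 over all genes.

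Of 27 activity-dependent genes, which neurons switch on with firing, limma called 0 in either direction at 3 d, and 2 were lower without pool 11. Their median was -0.38. Egr1 had 10.42, 9.86, 11.63 and 11.10 in periinfarct and 11.15, 11.85, 11.69 and 12.26 in contralateral cortex (-0.98 ± 0.29, limma adjusted p = 0.0237, under 2-fold, and -1.29 without pool 11). Fos had 0.46, Arc -0.71 and Npas4 -0.43. Their promoters were searched for the cyclic AMP response element, on both strands and in the same window. The letters TGACGTCA were held by 5 of the 22 genes with a promoter (22.7%), against 1.91% of all promoters, and TGACG, which TGACGTCA contains, by 14 (63.6%) against 22.0%.

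Oligodendrocyte genes were not called. Of 17 genes of oligodendrocytes and myelin and 11 of their precursors, limma called 0 in either direction, with medians of -0.10 and -0.11, and without pool 11 called 1 of the first higher and 2 of the second lower. Mbp, the basic protein of myelin, had 13.08, 12.65, 12.66 and 12.88 in periinfarct and 12.99, 13.62, 13.03 and 12.97 in contralateral cortex (-0.33 ± 0.23, limma adjusted p = 0.355). The ranges overlapped.

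Of 31 endothelium and barrier genes, 5 were called higher (16.1%, against 8.27% of all genes) and 0 lower (median 0.49). Without pool 11, 10 were higher and 1 lower, where 11.7% and 1.82% of all genes were called. Vwf, the clotting factor stored by endothelium, had 12.49, 13.33, 10.99 and 12.21 in periinfarct and 10.61, 10.74, 10.96 and 10.83 in contralateral cortex, with no overlap (1.47 ± 0.27, 2.77-fold, limma adjusted p = 0.00112, and 1.95 without pool 11). The adhesion gene Icam1 (1.39) was called. The tight junction genes Cldn5 and Ocln had 0.49 each and Vegfa -0.81, without a call. Of 11 pericyte and smooth muscle genes 3 were called higher (27.3%), namely Des (1.62), Tagln (1.44) and Kcnj8 (1.21), and 5 without pool 11.

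Among 24 stress response genes, 11 were called higher and 0 lower (median 0.85), and 12 were higher without pool 11. Hspb1, a small heat shock protein, had 12.65, 13.11, 8.86 and 12.89 in periinfarct and 8.11, 8.10, 8.71 and 8.54 in contralateral cortex, with no overlap (3.51 ± 0.52, 11.4-fold, limma adjusted p = 0.000374, and 4.63 or 24.8-fold without pool 11). Hmox1, the haem-degrading enzyme, had 2.98 and Atf3, a factor of injured cells, 3.14. Of 21 cholesterol and lipid genes, 6 were called higher (28.6%, against 8.27% of all genes), and 7 without pool 11. They were Abca1 (1.86), which exports cholesterol, Apoc1 (1.58), Apod (1.42), Ch25h (1.64), Nr1h3 (1.33) and Soat1, at least 2.33-fold, which stores cholesterol as esters. None of the synthesis genes was among them, and Sqle had -0.21. Of 29 growth factor and axon growth genes, 3 were called higher (10.3%, near the 8.27% of all genes), Atf3, Igf1 and Tgfb1 (1.96), and 7 higher and 1 lower without pool 11. The median of the list was -0.16. Bdnf had -0.67 and the repellent Sema3a -0.80, both not called.

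**Figure D3:**
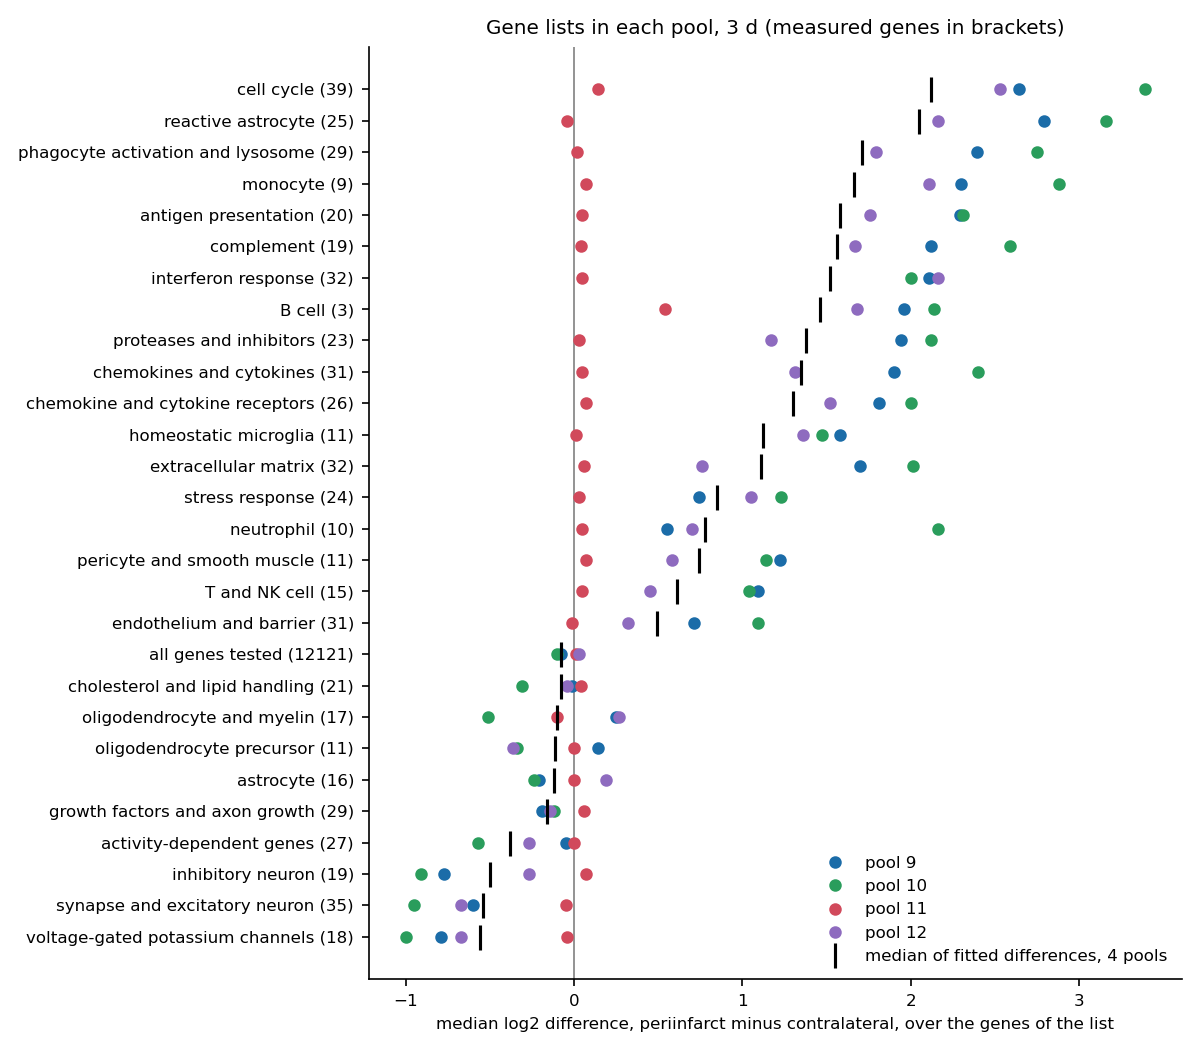
Median log2 difference, periinfarct minus contralateral (horizontal axis), over the measured genes of each list (vertical axis, number of genes in brackets) in each pool, with a black bar at the median of the fitted differences. Pools 9, 10 and 12 lie right of 0 for the immune, reactive astrocyte and cell cycle lists, and left of it for the synapse list, while pool 11 lies near 0 in nearly every list, for example at 0.14 for the cell cycle and -0.05 for the synapse list.

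The study chose 19 genes for PCR, and all had a probe. Of these, Cxcl1, Igf1, Cxcr4 and Casp8 were called higher at 3 d and 0 lower. Casp8, an initiator of apoptosis, had 5.89, 6.34, 4.04 and 5.42 in periinfarct and 3.52, 4.11, 3.8 and 4.13 in contralateral cortex (1.53 ± 0.45, limma adjusted p = 0.0247, and 1.96 without pool 11), the array of pool 11 lying within the contralateral range. The 15 others had differences from -0.99 (Calb1) to 0.95 (Pcna). Among them Bmp4, Fgf18 and Hes2 had 0.06, 0.06 and 0.04.

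The second question is how the periinfarct area at 3 d compared with that at 24 h, each against its own contralateral cortex. These contrasts share no array. In the contralateral array of pool 4 at 24 h the summed signal of 7 choroid plexus markers was 11400. It was 113, 144 and 141 in those of pools 1, 2 and 3. What this did to single genes of the 24 h contrast was not tested. At 24 h 1198 genes were called higher (9.88%) and 719 lower (5.93%). Of the 1003 genes higher at 3 d, 545 were higher at 24 h too, which is 54.3% of the first and 45.5% of the second. Of the 47 lower at 3 d, 22 were lower at 24 h (46.8% and 3.06%), and 3 genes were called in opposite directions. The difference between the times was tested itself. For 304 genes (2.51%) it was called higher at 3 d and for 224 (1.85%) lower. By probe the count was 1119 (584 higher, 535 lower), against 701 without the pool as a block, 249 in a fit of the compared arrays alone, and 1887 without pool 11. Scaling to the 75th percentile turned the split to 277 higher and 650 lower, and at 24 h from 2433 and 2011 to 3466 and 995.

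In the stress list 12 of 24 genes were called lower at 3 d than at 24 h and 0 higher, against a background of 1.85% lower. Hspa1b, an inducible chaperone, had pool differences of 6.95, 5.73, 7.19 and 7.77 at 24 h and of 1.05, 2.11, 0.05 and 1.14 at 3 d. No pool of one time reached the range of the other, and the change was -5.82 ± 0.42 (limma adjusted p = 6.39e-08). The small heat shock protein gene Hspb1, with a change of -1.84 (limma adjusted p = 0.131), was not called. Also lower were 6 of 31 chemokines and cytokines, among them Il6 (-3.00) and Ccl3, and 4 of 27 activity-dependent genes, among them Fos (-2.60) and Nptx2 (-1.98). In 3 of 25 reactive astrocyte genes, Ptx3, Socs3 and Sphk1, the difference was lower at 3 d, with 0 higher. Ccl2 and Spp1 had -2.74 (limma adjusted p = 0.241) and -2.76 (limma adjusted p = 0.259), so that for these a change with time was not shown.

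The genes that were higher at 3 d than at 24 h included markers of surveying microglia, 5 of 11 against a background of 2.51%, with 0 lower. They were P2ry12, P2ry13, Tmem119, Sall1 and Csf1r. P2ry12, P2ry13 and Tmem119 were called lower at 24 h, with differences of -1.08, -1.67 and -2.16, and at 3 d they were at 1.12, 0.91 and 0.23. The change between the times was 2.20 for P2ry12 (limma adjusted p = 0.00189), 2.57 for P2ry13 (limma adjusted p = 0.00451) and 2.39 for Tmem119 (limma adjusted p = 0.0145). Csf1r had pool differences of 0.22, -0.05, -0.05 and -0.33 at 24 h and of 1.58, 2.09, -0.25 and 2.09 at 3 d, a change of 1.43 ± 0.41 (limma adjusted p = 0.0408), with pool 11 among the 24 h values. Of the phagocyte list Igf1 (1.64), Trem2 (1.91) and Npc2 were called higher at 3 d.

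Of the cell cycle list 8 of 39 genes were higher at 3 d than at 24 h and 0 lower, against 2.51% and 1.85% of all genes. Among them were Ccnb1 and Ccnb2, the cyclins of the G2 to M transition, the spindle kinase gene Aurka and the kinesin gene Kif20a. Not called were Cdk1, with a change of 0.56 (limma adjusted p = 0.719), and the centromere gene Cenpa, with 2.62 (limma adjusted p = 0.115). Ccnb2 changed by 2.73 (limma adjusted p = 0.00369), from 0.10 at 24 h to 2.82 at 3 d. The replication genes Mcm5, at 2.84 and 2.87 at the 2 times, and Rrm2, at 2.54 and 3.34, were not called in this test. Lum, the matrix proteoglycan, went from -0.19 to 2.26 (change 2.44 ± 0.62, limma adjusted p = 0.0226), and Postn, a matrix protein of scar fibroblasts, from 0.10 to 1.59. Apoc1, an apolipoprotein of macrophages, went from -0.61 to 1.58 (change 2.19, limma adjusted p = 0.00312).

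**Figure D4:**
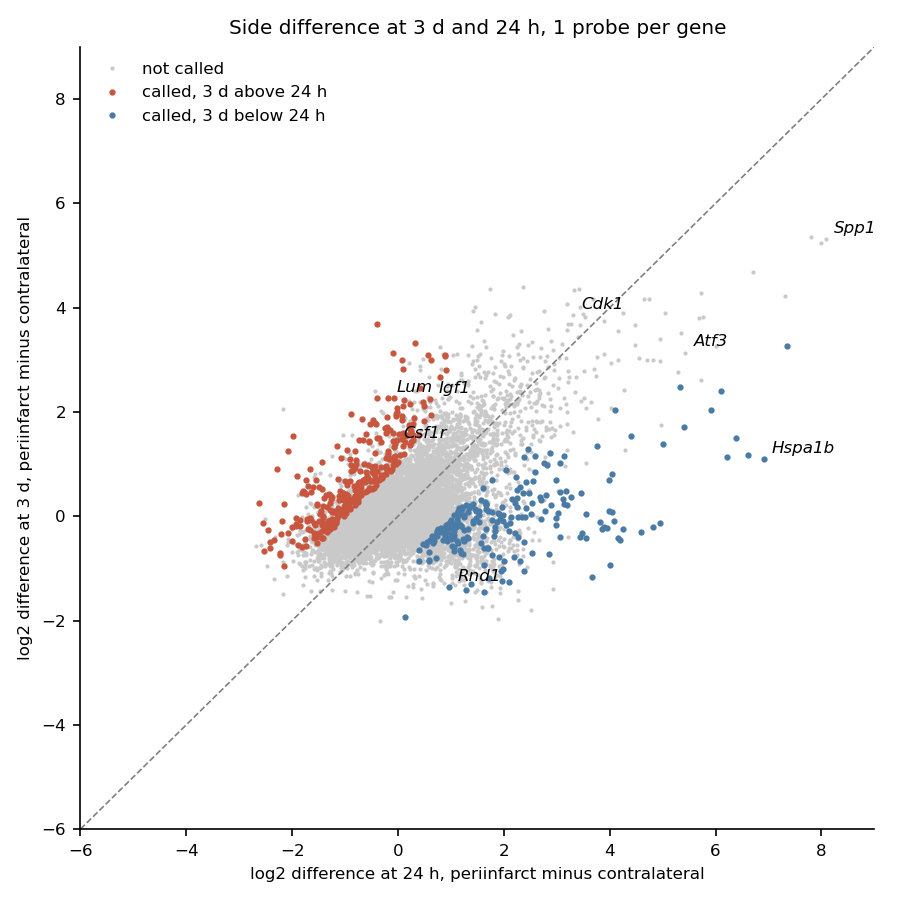
Log2 difference between periinfarct and contralateral cortex at 24 h (horizontal axis) and at 3 d (vertical axis) for 12121 genes, coloured where the difference between the times was called, with a dashed line where both are equal. Hspa1b lies at 6.91 and 1.09, far below the line, and Lum at -0.19 and 2.26, above it.

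The last comparison asked whether the difference between sides exceeded that of sham-operated rats at 3 d. In sham rats limma called 0% of genes in either direction. The difference of the differences was called higher for 530 genes (4.37%) and lower for 12 (0.099%), or 807 and 28 probes. This count rested on single pools. Limma called 0 probes after leaving out any of pools 9, 10, 12, 13, 14 or 16 (3101 to 5898 probes at an unadjusted p below 0.05), 696 without pool 15 and 2547 without pool 11, and 541 without the pool as a block. It called 0 probes in a fit of the compared arrays alone (4725 at an unadjusted p below 0.05), in a fit without the arrays of the core (6196), and with the slide as a block (3100).

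The genes that exceeded sham included 26 of 39 cell cycle genes, 15 of 29 phagocyte genes, 10 of 32 interferon genes and 10 of 20 antigen presentation genes, with 0 lower in each. Over all genes, 4.37% were called higher and 0.099% lower. Lgals3 had pool differences of 0.08, -0.17, 1.87 and 0.96 in sham rats, and its change against sham was 3.48 ± 0.91 (limma adjusted p = 0.0413). Gpr65, a proton-sensing receptor of immune cells, had sham differences of -0.74, -0.42, -1.18 and -0.03, and its change against sham was 3.58 ± 0.54 (limma adjusted p = 0.0338). Its log2 signal was 5.23, 5.44, 2.66 and 4.77 in periinfarct and 1.04, 1.49, 1.92 and 1.69 in contralateral cortex, with no overlap, but no contralateral array was well above background, so that the size of its change is uncertain. Spp1 was not among them. Among the 12 genes lower than in sham was Rims1, at 8.19, 7.42, 8.12 and 6.91 in periinfarct and 9.13, 8.72, 8.79 and 8.58 in contralateral cortex (change against sham -1.35 ± 0.32, limma adjusted p = 0.0338). Its areas did not overlap in infarct rats, and in the sham pools the differences were 0.71, -0.11, 0.40 and -0.17.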

How the data were processed

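RNA of rat cortex was hybridised to 44 one-colour Agilent arrays, 4 for each of 11 groups on 11 slides of 4, with RNA of 3 rats per array. The deposited scanner files hold Cy3 signal intensity, background-subtracted and spatially corrected per the file headers by Agilent Feature Extraction 10.7.3.1, and flags that are 0 or 1 for each of 45018 spots. The authors also deposited a log2 table of 20395 probes, thresholded, quantile normalized and filtered in GeneSpring per the methods of the study, which was used as an alternative. The members, gene lists and tests were chosen with earlier results of these data known.

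Uneven and outlier spots were set to missing, intensity was thresholded at 1, quantile normalized over all arrays, taken as log2 and averaged per probe. Of 41012 probes that are not controls, 30538 passed filters written after the study's description, more than the deposited table holds: signal above percentile 20 of its array, for 75% or more of a group's arrays (35035), above background by the same share (35946) and a coefficient of variation of at least 2.5% (37006). Of these, 107 had a missing value, so that some arrays drop out of their fit. No spot was saturated, and the share of spots well above background ran from 62.5% to 77.7% over the arrays. Symbols came from RefSeq by accession (16815 probes) or from the deposited table (2502), and a gene was read by its probe with the highest mean log2 signal (12121 genes). For 32 named genes with 38 other probes, 31 probes gave the same call, 7 did not (of Cd44, Ckmt2, Il1rl1, Pla2g3, Rnd1, Sox7 and Vcan) and 0 gave the opposite call. No depth in reads exists for arrays, and the 4 pools per group limit the precision. The labels give a rat number, and the pooling is known from the methods of the study. The p-values and SEs rest on the residual spread of the fit of all 44 arrays. They do not measure the spread of the 4 compared pools alone. For Aif1 the SE was 0.25, while the SD of its difference over the 4 pools was 1.15.

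All 44 arrays were fitted with limma 3.58.1 in R 4.3.3, with group and pool as fixed terms (18 residual degrees of freedom), the pool pairing the areas of the same rats. Same-pool deviations from the group means correlated at -0.352 to 0.153 (mean -0.109) at 3 d, against a mean of 0.036 for other pairs. A call was an adjusted p below 0.05 (Benjamini-Hochberg over all probes) and at least 2-fold. Where no array of the dimmer area had the probe well above background, the fold is a lower bound, the mean of the brighter area over the lowest signal well above background per array or the dim signal where higher. It bounds the fold of the mean over the pools, not the fold in each pool. Named were the 12 largest increases and decreases with the same sign in all pools, up to 3 called genes and the brightest uncalled gene of each list, the 6 largest differences each way from 24 h and from sham, and the PCR panel (142 genes, of which 1 is not reported here). Other list members, and the genes described by their promoter, were chosen after their values were seen.

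Alternatives were scaling to the 75th percentile, normexp (offset 50, on median signals), the authors' table, no filter or a stricter one, other sets of arrays, no block or pool as a random effect (statmod 1.5.0), slide as a block, outliers kept, each pool left out, sham controls, no fold minimum, the average over probes of 1 gene, and gene symbols. Chosen after seeing the data were the filter on signals well above background, the lists without pool 11, the compared arrays without pool 11, and the shared slide. In simulated data on 30431 probes for the comparison at 3 d, 76 of 100 changes of 1.5 and 93 of 100 of 2.5 on the log2 scale were called, with 5 others. The files were handled with pandas 2.3.3 and matplotlib 3.10.9 in Python 3.11.15, and in R with the package data.table, version 1.17.8.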

Additional observations from a re-analysis of the deposited data

Results flagged for a closer look

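A single pool lay far from the other 3 in 14 of 141 named genes. These genes were read from the same arrays and many were named by their values, so the count cannot be set against a chance rate. The measure is the gap of the outermost pool difference to its neighbour as a share of the range over the 4 pools, and marked are shares above Dixon's 95% critical value. Pool 11 was the far one in 10 genes, namely B2m (0.833), C1qc (0.877), Cd22 (0.968), Ctsb (0.885), Gpr18 (0.911), Hspb1 (0.863), Itgam (0.934), Lcn2 (0.957), Mx1 (0.890) and Zbp1 (0.924), and in all 8 that were called. Pool 10 was the far one in Apln and Tmem30b, with shares of 0.937 and 0.886, and pool 12 in Cd79b and Or52z14, with 0.886 and 0.883.

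The difference between the areas was itself different at 3 d and at 24 h for 1119 probes, by a contrast of the contrasts in limma. Among the named genes it was higher at 3 d in Ltc4s (2.88), Fmo4 (2.67), Lum (2.44), Igf1 (1.64), Tagln (1.54) and Csf1r (1.43), each value being the log2 change from 24 h to 3 d. It was lower at 3 d in Hspa1b (-5.82), Hspa1a (-5.45), LOC689410 (-5.07), Hes2 (-2.48), Rnd1 (-2.33) and Hsp90aa1 (-1.41). Other genes called were dim, well above background on 5 or fewer of the 8 arrays compared at 3 d, so that the size and order of their fitted changes cannot be read. They were Cxcr1 (3.50), Polq (3.32), Neil2 (3.19), Gpr18 (2.99), Rarres1 (2.85), Ccl20 (-5.08), LOC686038 (-5.02), Tmem30b (-4.96) and Cyp2b12 (-2.68).

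The difference also differed from that between the sides of sham-operated rats, for 835 probes. Among the named genes the log2 difference exceeded sham in Slamf9 (3.8), Lcn2 (3.63), Igsf7 l1 (3.54), Lgals3 (3.48), Klra5 (3.43), Hspb1 (3.24), Cdk1 (3.21) and Cd44 (3.12). Smaller excesses were found in Ifitm1 (3.00), RT1-Da (2.95), Atf3 (2.93), RT1-Db1 (2.93), S100a4 (2.88), Cd14 (2.82), Zbp1 (2.73), Cd8b (2.67), C5ar1 (2.24), Tnfrsf1b (2.21), Cd22 (2.17), C1qc (2.14), Igf1 (2.13), Tgfb1 (2.00), Abca1 (1.90), Cxcr4 (1.74), Itgam (1.70), Aif1 (1.64), Vwf (1.5) and Blnk (1.40). It was below sham in Rims1 (-1.35), RGD1563612 (-1.24) and R3hdm1 (-1.14). Dim by the same measure, with fitted values whose size and order cannot be read, were Cenpa (5.48), Mmp7 (5.02), Msr1 (4.23), Mmp12 (3.93), Mx1 (3.71), Gpr65 (3.58), Gpr18 (3.42), LOC681325 (3.32) and RT1-Ba (2.38) above sham and Or52z14 (-3.17), Cyp2b12 (-2.76), Or8u3 (-2.33) and Ervfrd-1 (-1.60) below it. These calls rest on the limma fit of all 44 arrays, and the counts behind them went to 0 when any of 6 single pools was left out.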

How the results depend on the processing

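For the comparison at 3 d, each alternative that made calls had more probes higher than lower, and none of the 87 named genes that were called changed sign. Against 1777 probes, limma called 581 with normexp, 0 from the compared arrays alone (5646 at an unadjusted p below 0.05), 0 with the slide as a block (3167), 5247 without a fold minimum and 1050 gene symbols. Leaving out each pool gave 807 to 3107, the lowest without pool 10, the highest without pool 11, and 1073 without pool 9. Without the pairing, that is with no replicate block, it was 1658, of which 1637 were among the 1777. Over the named genes, the block-free fit lost 7 calls, normexp 32, and the compared arrays alone and the slide block 87 each.

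Other settings gave these counts. At 24 h (4444), normexp gave 987, the slide block 679, no fold minimum 12077, gene symbols 1917, and leaving out a pool 2941 (without pool 4) to 4957. For 3 d minus 24 h (1119), normexp gave 356, the compared arrays alone 249, no replicate block 701, the slide block 249, no fold minimum 1927, gene symbols 528, and leaving out a pool 520 to 1887, with 521 without pool 4, 684 without pool 10 and 520 without pool 9. Against sham (835), normexp gave 455, the compared arrays alone, the fit without the core and the slide block 0 each, no replicate block 541, gene symbols 542, and leaving out a pool 0 to 2547. Sham alone stayed at 0 in every setting. The cause of these changes was not tested, but the compared arrays alone leave 3 residual degrees of freedom at 3 d, and the slide block 8.

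Among 2797 values of named genes under alternatives, 2402 kept direction and call, 313 lost and 58 gained a call, and 24 changed sign, all of genes not called. These were, with normexp, Ervfrd-1 (0.00) and Tmem30b (0.03). With the slide block they were Bmp4 (-0.06), LOC686038 (0.38), Mbp (0.05), Np4 (0.07), Stmn2 (0.02) and Tmem30b (0.12). With sham ipsilateral cortex as the control they were Bmp4 (-0.23), LOC686038 (0.41) and Zap70 (0.03), and with sham contralateral cortex Bmp4 (-0.35), Cyp2b12 (0.03), Ervfrd-1 (0.03), LOC686038 (0.43), Or52z14 (0.15), Or8u3 (0.09) and Zap70 (0.12). Leaving out a pool gave ranges of -0.03 to 0.18 for Bmp4, -0.39 to 0.01 for LOC686038, -0.22 to 0.01 for LOC689410, -0.01 to 0.15 for Fgf18, -0.48 to 0.35 for Hes2 and -1.24 to 0.20 for Or52z14. For dim genes the signal over background limits what can be read.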

Other observations

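Some of the largest increases belong to none of the lists described above. Slamf9, a receptor of the SLAM family on myeloid cells, had log2 signals of 10.55, 11.12, 6.15 and 9.93 in periinfarct and 4.58, 4.89, 5.98 and 6.27 in contralateral cortex of pools 9 to 12. The array of pool 11 lay below the contralateral array of pool 12, and the difference was 4.01 ± 0.72 (16.1-fold, limma adjusted p = 0.000833), or 5.29 without pool 11. The leukocyte receptor gene Cd300c2 had 8.71, 9.54, 4.08 and 7.53 against 3.33, 3.07, 3.88 and 4.07, with no overlap (3.88 ± 0.68, limma adjusted p = 0.000707, and 5.10 without pool 11). Kng2, a kininogen, from which kinins are cut, had 7.22, 9.34, 3.59 and 3.16 against 0.58, 0.58, 2.77 and 2.75, so that pools 11 and 12 were both close to their partners (4.16 ± 1.01, limma adjusted p = 0.00762, and 5.27 without pool 11).

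Of 8 B cell genes, 3 had a probe that passed the filters. Of these 3, Cd22 (2.19) and Blnk (1.46) were called higher and Cd79b, the signal chain of the B cell receptor, was not (0.52). Cd22 had 6.94, 6.54, 4.48 and 6.83 in periinfarct and 4.15, 3.82, 3.94 and 4.11 in contralateral cortex, and was called in none of the other contrasts of the sides (0.61 at 24 h and 0.02 in sham rats). Cd22 and Blnk are also expressed by microglia and other myeloid cells.

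Pool 11 also differed in its contralateral array. Mx1 was at 4.58 there, against 1.18, 1.61 and 2.05 in the contralateral arrays of pools 9, 10 and 12. The summed signal of 7 choroid plexus markers was 432 there, against 123, 122 and 129 in those arrays. In the periinfarct array of pool 11 that sum was 416, within the range of the other periinfarct arrays at 3 d (284 to 668).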
